A study of Artemia parthenogenetic lineage with 3 samples.

Results

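The 89 genes described here are those with 40 or more assigned peaks, or listed accessible regions, in a table that gives their signal in *Artemia* cysts 30 min after embryonic diapause termination (EDT). They were chosen by the number of listed peaks per gene identifier alone, and are called peak-rich genes below. They made up 89 of 12002 listed genes, a listed gene being one with at least 1 assigned peak. They held 4350 of the 108316 peaks. Wild-type cysts of a parthenogenetic *Artemia* lineage were dried and chilled to break diapause, rehydrated in seawater, and sampled as the ArR_30min group, which contained 3 replicates and is the only group analysed here. A cyst is an encased embryo arrested at the gastrula stage, so each library mixes all its cell types. A site open in more nuclei and a site more open in each nucleus cannot be told apart in such libraries. The peaks were listed on the genome of a related species, *Artemia franciscana* (ASM3288406v1), whose contigs (ctg) are unordered pieces of assembled sequence.

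ATAC-seq uses the Tn5 transposase to insert adapters where DNA is not wrapped tightly in nucleosomes, so read density follows openness. Open sites comprise promoters at gene starts and enhancers, which bind transcription factors and can act on a gene over a long distance. A gene with many enhancers around it is often one with a complex pattern of use in development. A peak is usually given to a gene only by distance, however, and a gene beside a large interval without other annotated genes then receives every peak of that interval. In this table all 108316 peaks had been assigned to the nearest listed gene start, without regard to the gene body in which they lay, as a check of every peak showed. The number of peaks of a gene is therefore the number in the stretch of contig nearer to its start than to any other listed start.

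The libraries contained 53022270, 56882821 and 82440230 reads in replicates 1, 2 and 3, as recovered from the deposited RPM values (reads of a peak scaled to a common library size). Of these, 6459097, 6342018 and 9757129 reads lay in peaks. A median peak of the peak-rich genes had 47, 50 and 74 reads in replicates 1, 2 and 3, against 35, 37 and 57 reads for a median peak of the other genes. The study mentions peaks merged over samples that include other time points. Far fewer peaks were called in each of these libraries than are listed. Replicate 3, the deepest library, had several times more called peaks than replicates 1 and 2. Most listed peaks were therefore not called in all 3 libraries. How far the peak numbers of genes rest on replicate 3 or on other time points was not tested.

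The peak number of the peak-rich genes ran from 40 to 99 with a median of 44 (quartiles 41 and 53), and the median of the other genes was 7 (quartiles 4 and 12). The threshold did not fall in a gap. There were 10 genes with 40 peaks, whose spans ran from 159 to 565 kb and whose median RPM per peak ran from 0.622 to 2.49. The 8 genes with 39 peaks had spans of 186 to 732 kb and medians of 0.523 to 1.69 RPM. Genes with 30 or more peaks numbered 257 and those with 50 or more numbered 31. When only peaks above background were counted, 62 of the 89 peak-rich genes had 40 or more. Peaks were called on read density, so passing this filter is partly built in.

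The assigned peaks of a peak-rich gene covered a long stretch of contig. The span from the first to the last assigned peak was 394 kb at the median (quartiles 322 and 542 kb, range 146 to 1057 kb). For the other genes the median span was 74.7 kb (quartiles 34.9 and 133 kb). Because the rule selects for long spans, 2528 other genes whose spans lay in the range of the peak-rich genes were used as a closer comparison. These are called genes of like span, although most lay at the short end of the range, with a median of 203 kb.

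**Figure D1:**
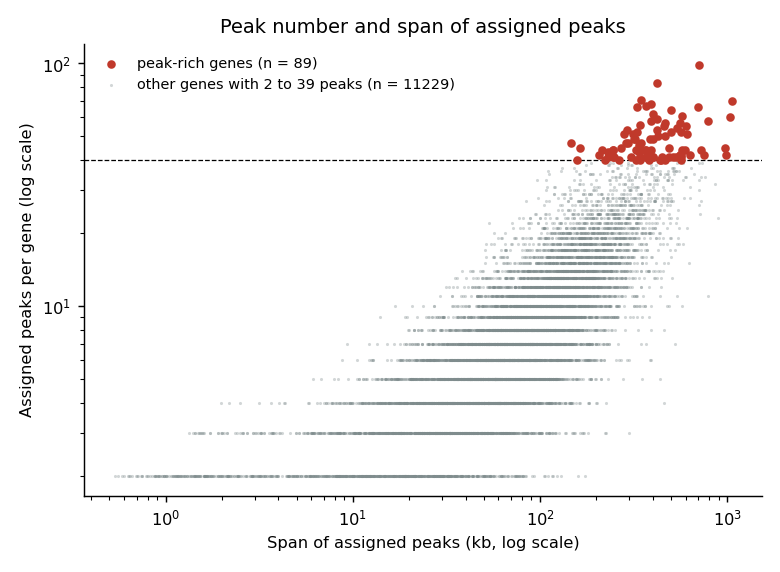
Number of assigned peaks against the span of assigned peaks (kb), both on log scales, for the 89 peak-rich genes (red) and 11229 other genes with at least 2 peaks (grey). The dashed line marks 40 peaks. The peak-rich genes span 146 to 1057 kb and the number of peaks rises with span over all genes.

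Peaks were also packed more closely. Peak-rich genes had a median of 0.121 peaks per kb of span, against 0.103 for all other genes and 0.0708 for genes of like span. Per 100 kb the first and last of these are 12.1 and 7.08 peaks. Part of this gap is fixed by the rule, since a gene with a given span can reach 40 peaks only above a certain density, and so no test was made. Among genes with spans of 350 to 500 kb the medians were 11.4 peaks per 100 kb for 28 peak-rich genes and 5.61 for 192 others. Above 500 kb they were 7.53 for 27 peak-rich genes and 4.68 for 54 others. Set against all other genes with 10 or more peaks, the ratio of medians was 1.24 instead of 1.71. Across the 12002 listed genes, Spearman's coefficient of peak number with span was 0.836, and with gene length 0.328. Genes are not independent replicates, span grows with each added peak, and these coefficients are descriptive.

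Peak number per kb varied widely among the peak-rich genes themselves. The 3 densest were evm.TU.ctg1159.10, with 47 peaks in 146 kb (0.321 peaks per kb), evm.TU.ctg1190.5, with 45 peaks in 164 kb (0.274 peaks per kb), and evm.TU.ctg1590.1, with 40 peaks in 159 kb (0.252 peaks per kb). The 3 sparsest were evm.TU.ctg626.8, with 42 peaks in 986 kb (0.0426 peaks per kb), evm.TU.ctg18.8, with 45 peaks in 972 kb (0.0463 peaks per kb), and the joined identifier evm.TU.ctg969.7_evm.TU.ctg969.6_evm.TU.ctg969.8, with 42 peaks in 750 kb (0.0560 peaks per kb). The dense and the sparse genes thus had similar numbers of peaks over very different lengths of contig.

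Length of the gene itself set these genes apart less than their surroundings did. The median gene length was 67.2 kb (quartiles 26.4 and 168 kb) for the peak-rich genes, against 73.5 kb for genes of like span and 39.8 kb for all other genes. Among the peak-rich genes 34 (38.2%) were 100 kb or longer, as were 37.9% of genes of like span. The longest were evm.TU.ctg1058.14 (749825 to 1095549 of ctg1058, 346 kb), evm.TU.ctg686.12 (845592 to 1076270 of ctg686, 231 kb) and evm.TU.ctg229.14 (1246970 to 1459714 of ctg229, 213 kb). At the other extreme, 16 peak-rich genes (18.0%) were shorter than 5 kb, against 17.03% of all other genes and 11.8% of genes of like span. The shortest were evm.TU.ctg1192.6 (285262 to 285416 of ctg1192, 0.155 kb), evm.TU.ctg911.6 (261774 to 262053 of ctg911, 0.280 kb) and evm.TU.ctg1254.3 (208369 to 208683 of ctg1254, 0.315 kb), which nonetheless had 43, 40 and 41 peaks.

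Most peak-rich genes lay at the edge of the listed part of their contig. The first or last listed gene start of a contig belonged to 76 of the 89 peak-rich genes (85.4%), against 41.1% of genes of like span and 29.5% of all other genes. For 24 of them (26.97%) the gene was the only one listed on its contig, against 6.84% of genes of like span. All 16 peak-rich genes under 5 kb were the first or last on their contig. So were 671 of the 2029 other genes under 5 kb, and 140 of the 299 such genes of like span. An outermost gene has no competitor for peaks on its outer side, and the interval from its start to the next listed start or to the outermost listed position of the contig was long. The larger of the 2 such intervals had a median of 364 kb for the peak-rich genes, 295 kb for genes of like span and 142 kb for the other genes. The part of contig position in the number of peaks was not tested.

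The identifiers showed a further feature of these intervals. Listed identifiers are numbered along each contig, and 9575 of 9632 neighbouring pairs (99.4%) stood in numerical order. Where numbers are skipped, no listed gene carries those numbers. Whether gene models with those numbers exist, and where, was not analysed here. The 87 peak-rich genes with a single identifier had a median of 2 skipped numbers beside them (quartiles 0 and 5), as had genes of like span (quartiles 1 and 4), against a median of 1 for all other genes. Numbers above the last listed one of a contig cannot be seen and were not counted. At least 10 skipped numbers occurred beside 7 of the 89 peak-rich genes (7.87%), against 1.78% of genes of like span and 0.529% of all other genes. The largest number was 15, between evm.TU.ctg2224.1 and evm.TU.ctg2224.17, the only 2 genes listed on contig ctg2224. These 2 genes had 49 peaks each, at 9993 to 328084 and at 333822 to 656056 of the contig. The part of skipped identifiers in the number of peaks was not tested.

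Most peaks of the peak-rich genes lay far from them. Of the 4350 peaks, 3353 (77.1%, exact 95% interval 75.8 to 78.3) were distal intergenic, meaning that they lay outside every listed gene, more than 3 kb from the assigned start and not within 300 bp past a gene end. This compares with 61.7% for genes of like span and 51.5% for all other genes. Peaks inside the assigned gene numbered 897 (20.6%, 19.4 to 21.9), against 32.1% and 38.1%. Peaks within 3 kb of the assigned start numbered 105 (2.41%, 1.98 to 2.91), against 4.22% and 8.57%. Intervals on these shares cover counting of peaks only, and peaks of 1 gene are not independent. A share near the start must fall as the number of peaks rises, because a 3 kb window can hold only a few peaks, and so the share of genes with any such peak is given below.

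Distance followed the same pattern. Of the peaks of peak-rich genes 57.7% lay more than 100 kb from the assigned start, against 35.2% for genes of like span and 16.3% for all other genes. For 49 of the 89 genes (55.1%) at least 1 peak lay beyond 300 kb. This held for 8.43% of genes of like span and 1.79% of all other genes. The farthest peak of a peak-rich gene was at a median of 314 kb, against 160 kb for genes of like span. A far peak needs a long span, which the rule selects for. Median spans were 394 kb and 203 kb in these 2 sets, so the distances were not compared at equal span. Peaks upstream of the start made up 38.0%, against 40.8% for genes of like span. Just 1 peak-rich gene (1.12%), evm.TU.ctg49.7, had all its peaks upstream, against 2.22% of genes of like span. Of these 89 genes, 51 (57.3%) had at least 75% of their peaks on 1 side of the start, against 60.6% of all other genes and 50.1% of genes of like span.

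**Figure D2:**
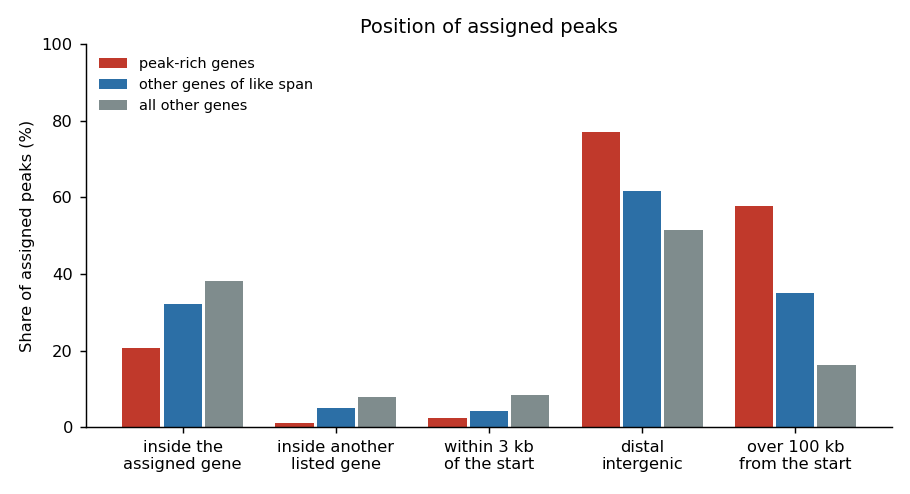
Share of assigned peaks (%) by position for the 89 peak-rich genes (red), 2528 other genes of like span (blue) and all 11913 other genes (grey). A peak can fall in several positions, so bars of 1 colour do not sum to 100. Distal intergenic peaks make up 77.1%, 61.7% and 51.5%, and peaks inside the assigned gene 20.6%, 32.1% and 38.1%, in the same order.

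The share of peaks inside the gene went with gene length, with a Spearman coefficient of 0.869 over the 89 genes. The 16 genes under 5 kb had 7 of 794 peaks inside (0.882%), the 39 genes of 5 to 100 kb had 273 of 1979 (13.8%) and the 34 genes of 100 kb or more had 617 of 1577 (39.1%). The highest shares were found in evm.TU.ctg1232.1 (14283 to 209458 of ctg1232, minus strand), with 36 of 45 peaks inside, evm.TU.ctg538.1 (2029 to 172217 of ctg538, minus strand), with 31 of 44, and evm.TU.ctg1159.10 (403408 to 526285 of ctg1159), with 32 of 47. No more than 9 of the 89 genes (10.1%) had at least 50% of their peaks inside, against 28.1% of genes of like span. Another 9 (10.1%) had none inside, against 14.7% of genes of like span and 22.2% of all other genes. Of the 9, evm.TU.ctg2160.1 (77782 to 78535 of ctg2160), evm.TU.ctg1033.5 (323446 to 325688 of ctg1033, minus strand) and evm.TU.ctg49.7 (516655 to 517905 of ctg49) had the most peaks, with 71, 66 and 64. Exons and introns could not be separated, since only gene ends were listed.

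Overlap with a gene other than the assigned one was rare, at 55 of 4350 peaks (1.26%), against 7.81% for all other genes. It occurred in 8 of the 89 genes (8.99%), against 21.0% of genes of like span and 22.5% of all other genes. Most of the overlap in the peak-rich genes came from evm.TU.ctg49.39 (2347361 to 2362933 of ctg49), for which 31 of 40 peaks lay inside another listed gene and 5 inside its own. Another 12 such peaks belonged to evm.TU.ctg607.24.

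The 10 genes with the most peaks illustrate the arrangement. The first, evm.TU.ctg1227.2, had 99 peaks, of which 1 lay upstream of the start and 93 were distal intergenic. The second, evm.TU.ctg1737.1 (14686 to 65380 of ctg1737), had 18 of 83 peaks inside. Its strongest peak lay 397 kb downstream of the start, near the far end of the span. In evm.TU.ctg2160.1, a gene of 0.754 kb, 19 of 71 peaks were upstream and the strongest lay 254 kb downstream. The 70 peaks of evm.TU.ctg248.7 (347708 to 441160 of ctg248) were spread over 1057 kb, with 10 inside the gene. In contrast, evm.TU.ctg1033.19 (721352 to 760329 of ctg1033) had 68 peaks with the strongest 104 kb upstream, and 32 of its peaks were upstream.

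Upstream peaks dominated in 3 of the others. In evm.TU.ctg1682.4 (260242 to 346505 of ctg1682, minus strand) 53 of 67 peaks were upstream, in evm.TU.ctg424.7 (541008 to 590441 of ctg424) 57 of 66, and in evm.TU.ctg49.7 all 64. The remaining 2 had few upstream peaks, with 4 of 66 in evm.TU.ctg1033.5 and 6 of 62 in evm.TU.ctg1480.4 (314555 to 381786 of ctg1480, minus strand). All 10 were the first or last listed gene of their contig, as were 76 of the 89 peak-rich genes.

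**Figure D3:**
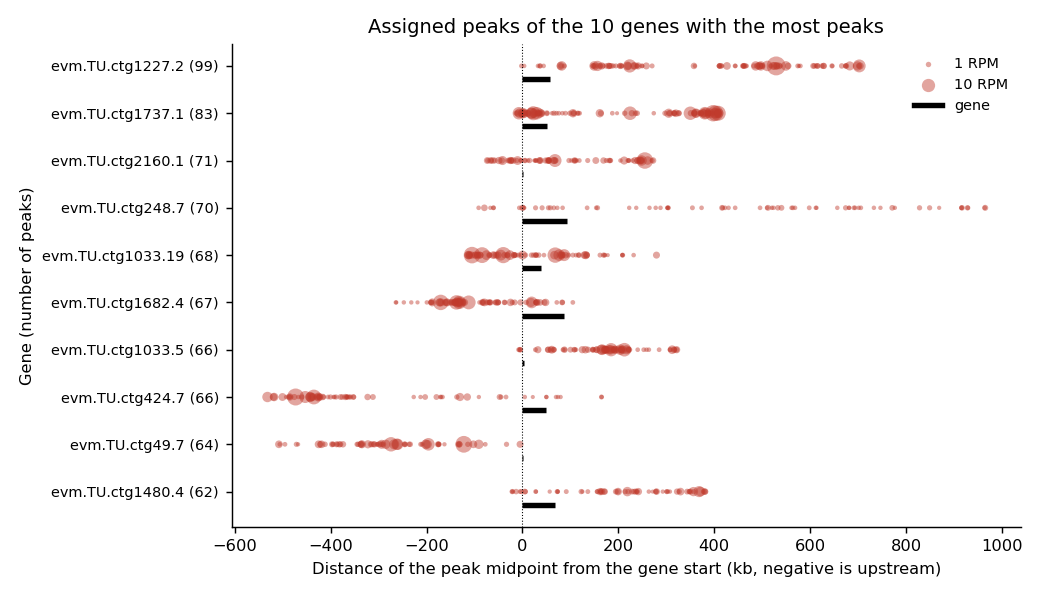
Assigned peaks of the 10 genes with the most peaks, placed by the distance of the peak midpoint from the gene start in kb (negative is upstream), with the area of each point growing with the mean RPM of 3 replicates. Black bars show the genes. In 9 of the 10 genes peaks of over 6 RPM stand among weak ones, while the peaks of evm.TU.ctg248.7 are weak throughout, with a strongest peak of 1.93 RPM.

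The peaks of the peak-rich genes were stronger than those of other genes in each replicate. The median peak had 0.905, 0.897 and 0.910 RPM in replicates 1, 2 and 3 in the peak-rich genes, against 0.679, 0.668 and 0.704 RPM in all other genes. The 2 sets of medians did not overlap. The difference on the log2(RPM + 0.0691) scale was 0.38, 0.39 and 0.34, and averaged 0.37 ± 0.03 (SD, n = 3). It thus exceeded the replicate spread, which is over libraries and does not cover the spread between genes. An exact permutation test that flips the signs of the 3 differences (two-sided) returned p = 0.25, below which a design with 3 replicates cannot go. Against genes of like span the difference was 0.44 ± 0.03. The signal was not what the rule counted, but peaks were called on read density, so the 2 measures are not fully separate.

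The excess appeared in each class of position compared, which left out 6 peaks classed as downstream of a gene end. It was 0.37 ± 0.02 for distal intergenic peaks, 0.38 ± 0.01 for distal intergenic peaks over 100 kb from the start, 0.35 ± 0.02 for peaks inside the assigned gene and 0.31 ± 0.07 for peaks within 3 kb of the start, on the log2 scale (SD, n = 3 in each case). Peaks were slightly wider in the peak-rich genes, with medians of 340.5 bp and 316 bp in the other genes. Per kb of width the difference was 0.24 ± 0.02. In total 17 such differences were computed, and 14 of them were above 0 in all 3 replicates. After Benjamini-Hochberg adjustment the smallest of the sign-flip permutation p-values was 0.304 (n = 3).

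Strong peaks were more frequent as well. Of the peaks of the peak-rich genes 693 (15.9%) had at least 2 RPM in all 3 replicates, and 7.78% of all listed peaks did. The share was 6.10% for genes of like span. Against the read density outside peaks, 4066 (93.5%) stood above background in all 3 replicates by a Poisson test with Benjamini-Hochberg adjusted p below 0.05, while 90.2% of all listed peaks did, so this count separated the genes little. With counts and background halved, since both mates of a pair were counted, the shares were 86.7% in the peak-rich genes and 80.4% of all listed peaks. With a background 2 times higher the shares were 65.7% in the peak-rich genes, 46.3% in genes of like span and 51.0% in all other genes. Listed peaks were called on read density, so a high share above background is partly built in. The peak-rich genes held 5.62%, 5.83% and 5.70% of the reads in peaks in replicates 1, 2 and 3 (mean 5.72% ± 0.106, SD, n = 3). They held 4.02% of the peaks and 4.42% of the covered bases.

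The stronger signal went with crowding. A peak of a peak-rich gene had a median of 12 other listed peaks within 50 kb on either side (quartiles 8 and 17), against 7 (quartiles 5 and 10) for the other genes. At least 20 such neighbours were found for 18.1% of the peaks of the peak-rich genes, against 1.42% of the other peaks. The rule counts listed peaks too, so part of this difference in neighbours is fixed by it. The matching below uses the same neighbour count. Median signal increased with the number of neighbours in both sets. At 10 to 14 neighbours the medians were 0.858 ± 0.0123 RPM in the peak-rich genes and 0.809 ± 0.0312 RPM in the other genes, and the log2 difference shrank to 0.08 ± 0.03. At 15 to 19 neighbours they were 1.10 ± 0.0175 and 1.09 ± 0.0312 RPM, with a difference of 0.01 ± 0.03, which did not exceed the spread between replicates and was below 0 in replicate 1. At 20 or more neighbours a difference of 0.20 ± 0.02 remained, with 1.92 ± 0.0223 RPM in the peak-rich genes and 1.66 ± 0.0109 RPM in the other genes. Below 10 neighbours the difference was -0.054 ± 0.071 for 0 to 4 and 0.02 ± 0.02 for 5 to 9 (SD, n = 3 in each case). Windows were cut at contig ends, which lowers the count for outermost peaks.

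**Figure D4:**
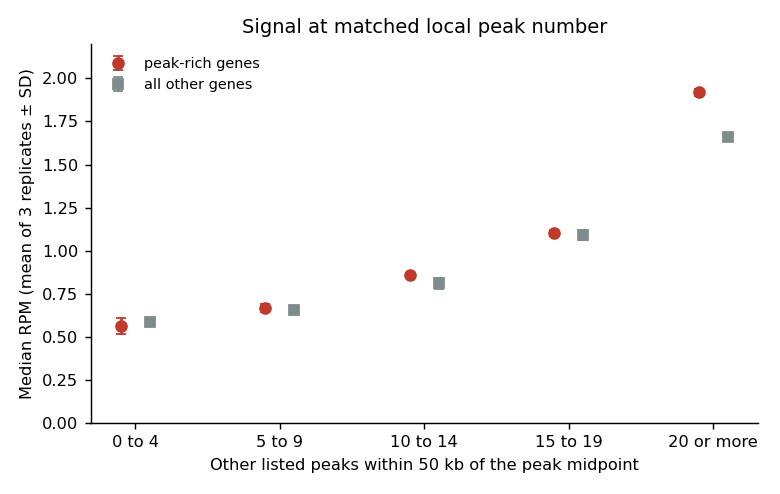
Median RPM of peaks (mean of 3 replicates, bars show SD) by the number of other listed peaks within 50 kb, for peak-rich genes (red circles) and all other genes (grey squares). The 2 sets lie close together from 0 to 19 neighbours and separate at 20 or more, with 1.92 and 1.66 RPM.

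Among the peak-rich genes, density and signal also went together from gene to gene. Over the 89 genes, the median RPM per peak had a Spearman coefficient of 0.789 with the number of peaks per kb of span, against 0.422 over the 2528 genes of like span. Over all 12002 listed genes it was 0.269, and Pearson's coefficient was -0.0108. The rule held the peak number of the 89 genes to 40 to 99, so their density varied mainly with span and the coefficients are not on equal terms. These coefficients share the peaks and libraries from which both measures come and carry no test. With the number of peaks itself the coefficient was 0.133 over the 89 genes. The gene with the most peaks was not the gene with the highest median.

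The median RPM per peak ran from 0.439 to 3.17 among the peak-rich genes. In 59 of the 89 genes (66.3%) it lay above the median of all peaks in each of the 3 replicates, against 23.6% of genes of like span and 32.6% of all other genes. In 16 peak-rich genes (18.0%) it lay below in each replicate, against 50.4% of genes of like span and 38.3% of all other genes. The highest value belonged to evm.TU.ctg1186.6.3 (316029 to 357459 of ctg1186.6), with 3.15, 3.28 and 3.08 RPM in replicates 1, 2 and 3. It had 29 of 44 peaks at 2 RPM or more in all replicates, and 31 of them were upstream. Next came evm.TU.ctg49.39 with 2.22, 2.57 and 2.67 RPM, evm.TU.ctg1159.10 with 2.40, 2.37 and 2.15 RPM, and evm.TU.ctg1097.10 (268389 to 276550 of ctg1097) with 2.03, 2.07 and 2.00 RPM. The values of evm.TU.ctg49.39 and evm.TU.ctg1159.10 overlapped between replicates, so their order is not settled.

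The lowest median was that of evm.TU.ctg686.12, with 0.415, 0.422 and 0.479 RPM, and none of its 42 peaks reached 2 RPM in all replicates. The next were evm.TU.ctg18.8 with 0.471, 0.527 and 0.534 RPM, evm.TU.ctg527.15 (1143956 to 1223477 of ctg527) with 0.509, 0.492 and 0.534 RPM, and evm.TU.ctg746.5 (563725 to 628734 of ctg746, minus strand) with 0.528, 0.519 and 0.497 RPM. The values of these last 3 genes overlapped with each other, and those of evm.TU.ctg18.8 also with evm.TU.ctg686.12. Among the 10 genes with the most peaks, evm.TU.ctg1737.1 (1.75 ± 0.0783 RPM), evm.TU.ctg1033.5 (1.73 ± 0.0485 RPM) and evm.TU.ctg1033.19 (1.68 ± 0.0692 RPM) were high, and evm.TU.ctg248.7 (0.563 ± 0.0463 RPM) was low (SD, n = 3 in each case). The first 3 of these overlapped in their values.

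**Figure D5:**
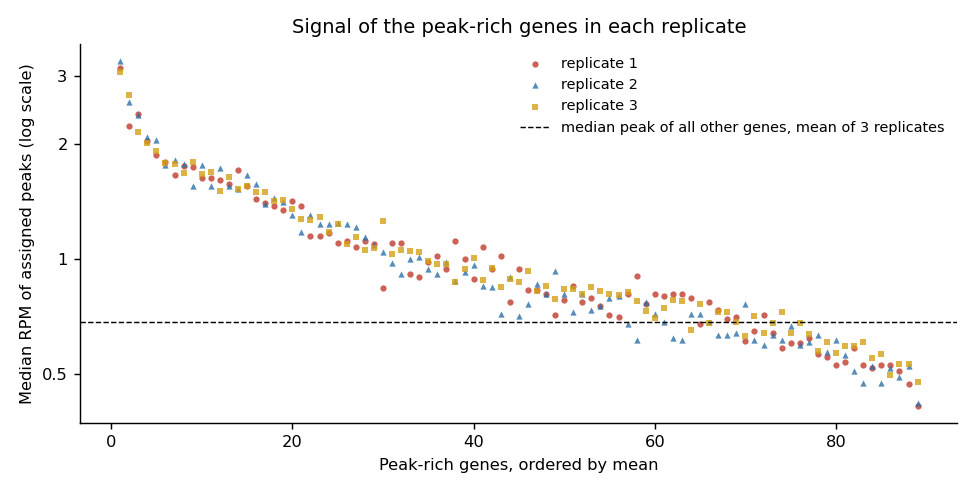
Median RPM of the assigned peaks (log scale) of each of the 89 peak-rich genes in replicates 1, 2 and 3, with genes ordered by the mean of the replicates. The dashed line is the median peak of all other genes. Medians run from 3.17 to 0.439 RPM, and the replicates of a gene lie close together compared with the range over genes.

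Pooled over genes, peaks of short peak-rich genes had a higher median than those of long ones. The peaks of the 16 genes under 5 kb had a median of 1.26 ± 0.0268 RPM, those of the 39 genes of 5 to 100 kb 0.892 ± 0.0160 RPM, and those of the 34 genes of 100 kb or more 0.799 ± 0.0221 RPM (SD, n = 3). This SD is over replicates and does not cover the spread between genes. Gene medians overlapped, from 0.757 (evm.TU.ctg2602.3) to 1.94 RPM (evm.TU.ctg1159.3) in genes under 5 kb. In genes of 100 kb or more they ran from 0.439 (evm.TU.ctg686.12) to 2.31 RPM (evm.TU.ctg1159.10). Signal was not tested against gene length. Since 7 of 794 peaks of the short genes lay inside them, their signal is almost wholly that of the surrounding interval. With genes under 5 kb left out of both sets, the difference from the other genes was 0.28 ± 0.01 on the log2 scale, and for genes under 5 kb alone it was 0.80 ± 0.07.

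Single strong peaks stood out in many of these genes. At least 1 peak with a mean of 10 RPM or more was found in 30 of the 89 genes (33.7%), against 3.28% of genes of like span, which had fewer peaks each. Peaks of genes of like span nonetheless reached a mean of 1005 RPM. The strongest peak of the peak-rich genes belonged to evm.TU.ctg587.15 (775607 to 886377 of ctg587) and ranked 22 among all listed peaks. It lay 291 kb downstream of the start at 1066202 to 1067951 of ctg587 and had 56.8, 50.4 and 46.9 RPM in replicates 1, 2 and 3. Another strong peak of this gene lay at 1137899 to 1139190, with 36.7, 37.2 and 38.2 RPM, although its median peak had 0.771 ± 0.0555 RPM. Among the peak-rich genes, the peak ranking next after the strongest lay inside evm.TU.ctg1796.1 (159 to 32444 of ctg1796, minus strand), at 779 to 4387, and had 35.4, 42.4 and 56.8 RPM. It was 3609 bp wide and the values of the replicates were spread widely, at 44.9 ± 10.9 RPM.

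The next strongest were the peaks of evm.TU.ctg176.10 (911427 to 967565 of ctg176) at 1114044 to 1114815, with 25.1 ± 0.834 RPM, of evm.TU.ctg1227.2 at 175374 to 176687 of ctg1227, with 21.2 ± 4.63 RPM, and of evm.TU.ctg1967.2 (219779 to 318739 of ctg1967, minus strand) at 63782 to 65306, with 20.7 ± 4.50 RPM (SD, n = 3 in each case). The values of these last 2 overlapped between replicates. They lay 203, 528 and 253 kb from the assigned starts. The strongest peak was distal intergenic in 64 of the 89 genes (71.9%), against 58.7% of genes of like span. It lay within 3 kb of the start in 4 peak-rich genes (4.49%), against 13.6% of genes of like span.

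Peaks at the gene starts themselves were not much more frequent. A peak over the start was assigned to 27 of the 89 peak-rich genes (30.3%), and 26.0% of all listed genes had one. A peak within 3 kb was assigned to 61 (68.5%), against 51.3% of genes of like span. The 27 start peaks had a median of 3.58, 2.39 and 2.66 RPM in replicates 1, 2 and 3, against 2.24, 1.58 and 1.73 RPM for 3099 start peaks of the other genes. The log2 difference was 0.61 ± 0.04 (SD, n = 3). The start peaks of the peak-rich genes had a median width of 780 bp, against 638 bp, and this was not matched. Replicate 1 was the highest of the 3 in 22 of the 27.

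The strongest start peak, that of evm.TU.ctg1186.6.3, had 9.68 ± 1.59 RPM, and the next 4 were those of evm.TU.ctg740.1 (7.04 ± 1.80 RPM), evm.TU.ctg538.1 (6.38 ± 1.42 RPM), evm.TU.ctg117.8 (5.73 ± 1.22 RPM) and evm.TU.ctg1159.3 (5.21 ± 0.566 RPM). The values of each overlapped with those of the next. The weakest was that of evm.TU.ctg206.40, with 0.513 ± 0.118 RPM (SD, n = 3). For evm.TU.ctg117.8 the peak over the start was also the strongest of all its 52 peaks.

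A function could be attached to 12 of the 89 genes from Gene Ontology terms, which class a protein by likeness to known ones. These 12 appear among genes the study selected for change between time points, in a list held here only in part, so they are not a sample of the 89 and no function was compared between sets. Their terms were varied, and some were for the cell surface or for signalling. Terms for calcium ion binding and for the cell surface were attached to evm.TU.ctg206.40 (2355555 to 2523519 of ctg206, minus strand), with 57 peaks, of which 17 were inside the gene, and a median of 0.745 ± 0.0577 RPM. The cell adhesion gene evm.TU.ctg359.30 (1906754 to 1993352 of ctg359, minus strand) had 51 peaks, of which 48 were upstream, with 0.686 ± 0.0485 RPM. The gene with a term for a guanyl-nucleotide exchange factor of ARF, a small GTPase that directs vesicle traffic, was evm.TU.ctg526.18 (1096234 to 1264529 of ctg526). It had 25 of 42 peaks inside and 0.843 ± 0.119 RPM.

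The ion transporter gene evm.TU.ctg740.1 (174188 to 378746 of ctg740) had the strongest signal of the 12, with medians of 1.74, 1.55 and 1.80 RPM and 26 of 47 peaks inside. Its strongest peak lay in the gene body, 57.3 kb from the start, with 12.1, 8.60 and 9.26 RPM. The gene with terms for a DNA-binding transcription factor and for calmodulin binding, evm.TU.ctg1232.1, had 1.08 ± 0.0143 RPM, and its strongest peak lay 132 kb into the gene. An endoribonuclease term, for enzymes that cut RNA internally, was attached to evm.TU.ctg538.1, which had 1.04 ± 0.0640 RPM. Terms for both protein kinase and phosphatase activity were attached to evm.TU.ctg607.24 (1624861 to 1769293 of ctg607), with 50 peaks and 0.841 ± 0.0822 RPM. The weakest but 1 of the 12 was evm.TU.ctg248.7, whose terms are those of a zinc metalloendopeptidase, an enzyme that cuts proteins. None of its 70 peaks had 2 RPM or more in all replicates. The term of evm.TU.ctg898.1 (191109 to 375355 of ctg898, minus strand) was for the recognition of egg and sperm, with 41 peaks and 0.955 ± 0.137 RPM. The other 3 genes, evm.TU.ctg117.8 (0.936 ± 0.121 RPM), evm.TU.ctg100.11 (0.766 ± 0.145 RPM) and evm.TU.ctg746.5 (0.515 ± 0.0157 RPM), had no term more specific than protein binding (SD, n = 3 in each case).

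Replicates were close for most peak-rich genes. The SD of the summed RPM of a gene was 4.65% of its mean at the median, with a range from 0.701% to 15.9%. The sum was highest in replicate 1 for 50 genes (56.2%), in replicate 3 for 27 (30.3%) and in replicate 2 for 12 (13.5%). In the same order the shares were 47.7%, 35.5% and 16.7% of all other genes. For genes of like span they were 43.0%, 40.7% and 16.2%. Peak by peak replicate 1 was not raised, with a median ratio to the geometric mean of replicates 2 and 3 of 0.994 over the 4350 peaks. Over the 27 start peaks the ratio was 1.38, against 1.37 over the start peaks of other genes.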

How the data were processed

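Cysts of the ArR_30min group were profiled by ATAC-seq in 3 replicates. The authors trimmed reads with skewer, aligned them with BWA to ASM3288406v1, removed duplicates and called peaks with MACS2. The study names ChIPseeker for placing peaks in functional regions of the genome. It does not state the rule by which each peak was given a gene. BWA and MACS2 also stand in the submitters' processing notes. The deposited table holds read counts per merged peak, which are not normalised. The deposited RPM values equal the count plus 1 over a library total, which was recovered to within 0.0005%. Columns of other samples numbered 0. Alignment to a related species loses reads where the genomes diverge.

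Genes were grouped by rows per gene identifier. The genes and comparisons were chosen with earlier results of these data known. Signal was compared as the difference of median log2(RPM + 0.0691), the pseudocount being 0.1 of the median RPM, tested by exact two-sided permutation of the signs over replicates. Counts were tested against the read density outside peaks (Poisson, Benjamini-Hochberg), taking contig lengths as the outermost listed position. This step was tried on simulated independent Poisson counts at a higher read density than in these libraries. That trial does not cover reads counted as both mates of a pair. TMM factors came from edgeR 4.0.16. scipy 1.17.1 was used. Genes were named by extremes of peak number, signal, length, density, share inside and strongest peak, and where a function was given. The recovered totals are close to 2 times the study's deduplicated read numbers, so both mates of a pair were counted and the reads are not independent. Intervals cover counting error only. The replicates are described as biological but come from 1 batch of cysts. No genome sequence was used here.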

Additional observations from a re-analysis of the deposited data

How the results depend on the processing

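The signal excess of the peak-rich genes was above 0 under 16 of the 17 alternatives run. Matching on the number of peaks within 50 kb left little of it below 20 neighbours, with -0.054 on the log2 scale at 0 to 4 neighbours, a reversal, 0.02 at 5 to 9, 0.08 at 10 to 14 and 0.01 at 15 to 19, and 0.20 remained at 20 or more. It was highest, at 0.44, against genes of like span. It was 0.21 with a pseudocount 10 times larger, 0.24 per kb of width, 0.25 among peaks at or above the median signal, 0.38 with TMM scaling, 0.33 over gene medians, 0.30 among first or last listed genes and 0.28 without genes under 5 kb. With 1 replicate left out it was 0.36 to 0.39, a direction fixed in advance by the 3 values above 0. The comparisons with genes of like span, first or last listed genes, genes of 5 kb or more and matched neighbours were added after seeing the data.

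The number of genes was 257 at 30 or more peaks and 31 at 50 or more. The share within 3 kb of the start was 1.24% with a 1 kb window and 2.92% by reads. The ratio of median peak density was 1.87 by territory between listed starts, 1.90 with peaks above background only, 1.24 against other genes of 10 or more peaks and 1.76 among first or last listed genes. Peaks above background numbered 55851 with a background 2 times higher. No paired analysis was possible because there is only 1 group. A group of 3 is too small for a search for outlying samples.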

Other observations

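Peak-rich genes shared a contig in 6 cases. On ctg1033 the genes evm.TU.ctg1033.19 and evm.TU.ctg1033.5 had medians of 1.68 ± 0.0692 and 1.73 ± 0.0485 RPM per peak. On ctg1159 the genes evm.TU.ctg1159.10 and evm.TU.ctg1159.3 had 2.31 ± 0.137 and 1.94 ± 0.0886 RPM. On ctg2224 the genes evm.TU.ctg2224.1 and evm.TU.ctg2224.17 had 1.41 ± 0.0329 and 1.14 ± 0.0690 RPM. On ctg388 the genes evm.TU.ctg388.10 and evm.TU.ctg388.6 had 0.592 ± 0.0361 and 0.713 ± 0.0525 RPM. On ctg49 the genes evm.TU.ctg49.39 and evm.TU.ctg49.7 had 2.49 ± 0.240 and 1.39 ± 0.0453 RPM. On ctg686 the genes evm.TU.ctg686.12 and evm.TU.ctg686.2 had 0.439 ± 0.0352 and 0.739 ± 0.101 RPM (SD, n = 3 in each case). These genes were set side by side after their values were seen, and likeness within a contig was not tested.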
